A study of Mus musculus with 12 samples.

Results

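The genes described here carry glucose from the cell surface to acetyl-CoA in left ventricular muscle. They comprise 2 glucose carriers (Slc2a4 and Slc2a1), the enzymes of glycolysis, the lactate dehydrogenases and lactate carriers, the mitochondrial pyruvate carrier and the pyruvate dehydrogenase complex with 3 of its regulators. Members were chosen by gene symbol, matched through NCBI Gene identifiers, and all 32 were among the 18079 genes of the deposited table. FPKM scales fragments by the length of the transcript and the size of the library, so levels of different genes can be set side by side. For testing, a gene had to reach 1 FPKM in 3 or more of the 12 libraries, and 31 members did. The exception was Aldoc, the brain form of aldolase, which lay at or below 0.15 FPKM in every mouse.

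RNA was sequenced from the left ventricular muscle of 12 male C57BL/6 mice (C57BL/6J in the study's methods), 3 in each of 4 groups, with 1 library per mouse. DMSO+Sham mice received the solvent DMSO and a sham operation, hispidulin+Sham mice the flavonoid hispidulin and a sham operation, DMSO+AB mice DMSO and descending aortic banding (AB), and hispidulin+AB mice hispidulin and AB. AB narrows the aorta with a ligature and loads the left ventricle with pressure. According to the labels the mice were 8 weeks old at surgery and 12 weeks old when the hearts were taken, 4 weeks later, and hispidulin (20 mg/kg/day) or DMSO was injected into the peritoneum daily from 1 day ahead of surgery. The labels name no transgene, every group had an operation and an injection, and there was no group without DMSO or drug.

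Glycolysis splits glucose into pyruvate in the cytosol and yields a little ATP without oxygen. Pyruvate then either becomes lactate through lactate dehydrogenase or enters the mitochondrion, where the pyruvate dehydrogenase complex turns it into acetyl-CoA for the citric acid cycle. Several steps are served by isoforms encoded by different genes, of which some are typical of muscle (Slc2a4, Pfkm, Pgam2, Eno3) and others of most tissues or of the fetal heart (Slc2a1, Pgam1, Eno1). The adult heart burns mostly fatty acids and oxidizes lactate as well as glucose, and a shift toward glucose use is a textbook feature of the pressure-loaded heart.

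The promoters of the members whose level changed under AB in DMSO-treated mice are shown so that their sequence can be set beside their values. They are the 250 bases ahead of the annotated start, on the minus strand, 5′ to 3′, from RefSeq (GRCm38.p6). For Pfkp the start used lies inside the gene as annotated, which extends to base 6649060 of chromosome 13, so its window lies within the gene's interval. Capitals mark the GC box GGGCGG, the nuclear receptor half-site AGGTCA and the MEF2 motif, each searched on both strands, together with the core ACGTG of the hypoxia response element.
Pfkp: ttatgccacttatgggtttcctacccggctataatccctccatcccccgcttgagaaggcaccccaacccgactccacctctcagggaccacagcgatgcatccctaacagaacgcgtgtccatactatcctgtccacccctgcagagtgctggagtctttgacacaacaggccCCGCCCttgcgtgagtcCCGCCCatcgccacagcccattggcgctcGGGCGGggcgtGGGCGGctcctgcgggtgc
Pgam2: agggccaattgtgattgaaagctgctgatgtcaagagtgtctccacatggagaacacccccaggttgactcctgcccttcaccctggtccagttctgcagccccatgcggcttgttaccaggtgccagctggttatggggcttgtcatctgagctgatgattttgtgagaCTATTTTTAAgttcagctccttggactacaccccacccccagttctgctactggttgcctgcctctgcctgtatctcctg
Ldhb: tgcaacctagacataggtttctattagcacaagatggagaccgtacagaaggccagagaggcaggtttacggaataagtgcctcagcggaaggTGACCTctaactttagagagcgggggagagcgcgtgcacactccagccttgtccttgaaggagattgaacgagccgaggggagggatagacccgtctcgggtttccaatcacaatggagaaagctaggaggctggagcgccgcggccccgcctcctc
The Pfkp window (chr13:6648772-6649021) holds 4 GC boxes. The Pgam2 window (chr11:5803797-5804046) holds 1 MEF2 motif, the only one among the 30 members with a promoter in the RefSeq table. The Ldhb window (chr6:142507958-142508207) holds 1 nuclear receptor half-site. A GC box occurred in 17 of the 30 member promoters (56.7%) and in 32.9% of all 27025 promoters of the table, the half-site in 10% and 13.8%, the hypoxia core in 33.3% and 16.6%, and the MEF2 motif in 3.33% and 3.01%. The 10 member promoters with the hypoxia core were those of Hk2, Ldha, Pdhb, Pdk2, Pfkm, Pgam1, Pgk1, Slc16a1, Slc16a3 and Slc2a1, so none of the 3 printed windows holds it. These matches describe letters in the window and no binding was measured.

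Some libraries stood apart from the rest. The third DMSO+Sham library correlated least with the other 11 (mean Pearson r 0.963 across genes, against 0.971 to 0.985 for the rest), and Actc1, cardiac actin, stood at 2741 FPKM there and at 7909 to 11562 elsewhere. Myl7, an atrial myosin light chain, reached 333 FPKM in the third hispidulin+Sham, 67.5 in the second DMSO+AB and 42.3 in the third hispidulin+AB library, against 15.0 or less in the others. The hypertrophy genes Nppa, Nppb and Acta1 were higher in DMSO+AB than in DMSO+Sham by 4.54, 3.08 and 4.12 on the log2 scale (limma adjusted p = 0.0121, 0.0036 and 0.0032), where Nppa lost its call without the first DMSO+Sham, second DMSO+AB or the third DMSO+AB library (adjusted p = 0.0565, 0.0592 and 0.053), when only the 6 DMSO libraries were fitted (0.109), with a covariate for the series into which the labels' animal numbers fall (0.0607) and without the 3 libraries of highest Myl7 outside DMSO+Sham (0.103). Nppb lost its call in the last of these (adjusted p = 0.0542). The first DMSO+Sham mouse is alone in its series, so the series covariate also takes its library out of the difference. Myh7 differed by 1.55 and did not pass (adjusted p = 0.182). Cardiomyocyte markers dominated in every library (9 markers, summed 38840 to 56407 FPKM), and 4 of 6 skeletal muscle markers lay under 1 FPKM in every mouse, with a sum over the 6 of 2.17 to 6.37 FPKM. Of the 2 tested, Tnni2 passed as lower in DMSO+AB than in DMSO+Sham (-0.89, adjusted p = 0.0269 from limma) and over both treatments.

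In DMSO+Sham hearts the members spanned a wide range of levels, from 4085 ± 265 FPKM (SD, n = 3 mice) for Gapdh, glyceraldehyde-3-phosphate dehydrogenase, to 0.09 in each mouse for Aldoc. Gapdh was followed by Aldoa, the muscle aldolase, at 2474 ± 176, Ldhb, the heart form of lactate dehydrogenase, at 1513 ± 42.3, and Eno3, muscle enolase, at 934 ± 146. Each of these 4 was separate from the next in order, in that the ranges of the 3 mice did not overlap. Below them, neighbours from Mpc1 (693 ± 23.9) to Pgk1 (293 ± 11.2) and Gpi1 (290.5 ± 13.6) overlapped. At the lower end stood Pfkp (20.4 ± 3.23), Slc2a1 (14.4 ± 5.99), Pdp1 (8.47 ± 1.89) and Slc16a3 (2.77 ± 2.02). Together the members made up between 2.70% and 3.30% of all FPKM of a mouse, with the lowest share in the third DMSO+Sham and the highest in the third DMSO+AB library.

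**Figure D1:**
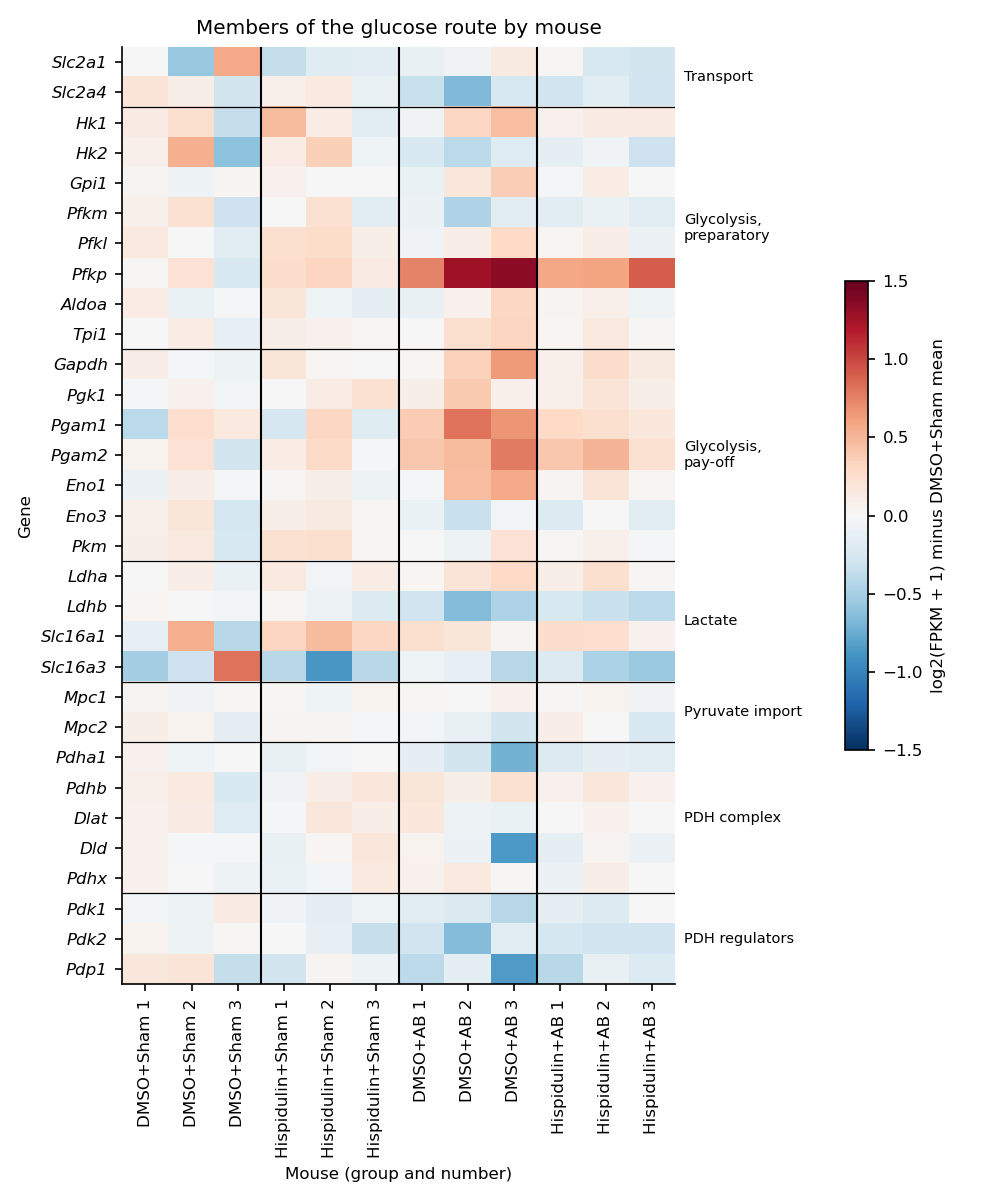
Heat map of log2(FPKM + 1) for the 31 members tested (rows, in the order of the route) in each of the 12 mice (columns, by group), as the difference from the mean of the 3 DMSO+Sham mice of that gene. The row of Pfkp is higher in all 6 AB mice and that of Ldhb lower, while Dld and Pdha1 are lowest in the third DMSO+AB mouse.

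The first question was how pressure load alone bears on these genes, and DMSO+AB was compared with DMSO+Sham. Pfkp, the platelet form of phosphofructokinase, and Pgam2, muscle phosphoglycerate mutase, rose, and Ldhb fell. These were 3 of the 31 members tested (9.68%), where 5.21% of all 11664 genes tested passed at an adjusted p under 0.05 from limma (2.5% as higher and 2.71% as lower). Of the members, 17 differences lay above 0 and 14 below, with a median of 0.05 on the log2 scale, against -0.035 over all genes, of which 44.2% lay above 0 and 55.8% below. An unadjusted p under 0.05 was found for 11 members, 5 higher and 6 lower, where 20.4% of all genes had one. In 8 members (Pfkp, Pgk1, Pgam1, Pgam2, Ldhb, Pdha1, Pdk1 and Pdk2) the 3 mice of one group lay beyond the 3 of the other, as in 17.9% of all genes.

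Markers of fibroblasts moved with the same groups. Their summed level over 8 genes was 346 to 448 FPKM in DMSO+Sham and 406 to 987 in DMSO+AB, all 8 differences lay above 0 and 3 (Col1a1, Postn and Col1a2) passed. Of 9 cardiomyocyte markers, Ryr2 and Pln passed as lower, with summed levels of 38840 to 56407 FPKM in DMSO+Sham and 45856 to 50838 in DMSO+AB. Their part in the results below was not tested, and in bulk tissue fewer cells of a type and less RNA per cell cannot be told apart.

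Among the carriers, Slc2a4 encodes GLUT4, which insulin and contraction bring to the surface of the muscle cell, and Slc2a1 encodes GLUT1, the basal carrier of many tissues. Slc2a4 stood at 237, 221 and 171 FPKM in the DMSO+Sham mice, 219, 229 and 194 with hispidulin+Sham, 164, 131 and 175 with DMSO+AB and 169, 185 and 169.8 with hispidulin+AB. Apart from the third DMSO+Sham mouse, every Sham mouse lay above every AB mouse. The difference of DMSO+AB from DMSO+Sham was -0.41 (SE 0.14, adjusted p = 0.111 from limma) and did not pass. Without the third DMSO+Sham library it was -0.55 and passed (adjusted p = 0.0375). It passed in 2 of 23 alternatives, where the adjusted p reached 0.407. With a library left out the difference ran from -0.55 to -0.29.

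Slc2a1 was found at 13.6, 8.86 and 20.8 FPKM in the DMSO+Sham mice, 10.4, 11.9 and 12.1 with hispidulin+Sham, 12.6, 13.1 and 15.1 with DMSO+AB and 13.8, 11.5 and 11.1 with hispidulin+AB. The highest and the lowest value both belonged to DMSO+Sham, and the groups overlapped (difference -0.01, adjusted p = 0.987 from limma). As a share of the FPKM of both carriers, Slc2a1 made up 6.70% ± 3.66 in DMSO+Sham, 5.11% ± 0.671 with hispidulin+Sham, 8.04% ± 0.979 with DMSO+AB and 6.52% ± 0.915 with hispidulin+AB (SD, n = 3 mice). GLUT4 transcripts exceeded those of GLUT1 in every mouse.

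In the first steps of glycolysis, which spend ATP, Hk1 and Hk2 encode hexokinases that trap glucose as glucose-6-phosphate. Hk1 stood at 50.5, 54.9 and 36.1 FPKM in the DMSO+Sham mice, 65.1, 50.4 and 41.2 with hispidulin+Sham, 44.8, 57.9 and 63.7 with DMSO+AB and 48.5, 50.6 and 50.8 with hispidulin+AB. Hk2 stood at 52.7, 72.4 and 32.2 FPKM in the DMSO+Sham mice, 53.7, 63.9 and 47.5 with hispidulin+Sham, 42.4, 37.4 and 43.3 with DMSO+AB and 44.9, 47.8 and 39.8 with hispidulin+AB. Both were low in the third DMSO+Sham mouse, the groups overlapped for both genes, and neither passed (differences 0.24 and -0.27, adjusted p = 0.521 and 0.534 from limma). Without that library the differences were 0.0591 and -0.58 (adjusted p = 0.899 and 0.063), and without the second DMSO+Sham library that of Hk2 was -0.0076. Over both treatments Hk2 passed without the third DMSO+Sham library (-0.44, adjusted p = 0.025) and with library weights (-0.37, adjusted p = 0.0342). Hk2 made up between 39.3% and 56.9% of the hexokinase FPKM over all mice. Gpi1, which converts glucose-6-phosphate to fructose-6-phosphate, lay between 271 and 376 FPKM over the 12 mice.

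Phosphofructokinase, the committed and most regulated step of glycolysis, is built from muscle (Pfkm), liver (Pfkl) and platelet (Pfkp) subunits. Pfkp was found at 20.5, 23.6 and 17.2 FPKM in the DMSO+Sham mice, 24.6, 25.7 and 22.1 with hispidulin+Sham, 34.7, 50.4 and 53.1 with DMSO+AB and 30.9, 31.0 and 38.99 with hispidulin+AB. All 6 AB mice lay above all 6 Sham mice. The difference of DMSO+AB from DMSO+Sham was 1.12 on the log2(FPKM + 1) scale (SE 0.17, 95% interval 0.76 to 1.49, adjusted p = 0.00666 from limma), the largest of the members. Pfkp passed in 21 of 23 alternative fits. It did not pass with only the 6 libraries compared (adjusted p = 0.0906) or without the 3 libraries of highest Myl7 outside DMSO+Sham (difference 1.05, adjusted p = 0.0756).

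Pfkm stood at 405, 453 and 311 FPKM in the DMSO+Sham mice, 385, 451 and 346 with hispidulin+Sham, 363, 280.0 and 345 with DMSO+AB and 342, 358 and 345 with hispidulin+AB. Pfkl stood at 50.8, 46.1 and 41.2 FPKM in the DMSO+Sham mice, 54.3, 55.9 and 48.6 with hispidulin+Sham, 44.4, 49.2 and 56.6 with DMSO+AB and 47.0, 49.2 and 43.0 with hispidulin+AB. For both, the groups overlapped, and the Pfkm difference of -0.23 did not pass (adjusted p = 0.404 from limma). With a library left out the Pfkm difference ran from -0.39 to -0.12. The Pfkp share of the phosphofructokinase FPKM was 4.49% ± 0.173 in DMSO+Sham, 5.14% ± 0.279 with hispidulin+Sham, 10.9% ± 2.78 with DMSO+AB and 7.85% ± 1.12 with hispidulin+AB (SD, n = 3 mice). The lowest share after AB was 7.06% and the highest after Sham 5.30%. The Pfkm share was correspondingly 84.2% to 86.7% in DMSO+Sham and 73.8% to 82.1% in DMSO+AB, so the muscle subunit remained the main one in every mouse.

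**Figure D2:**
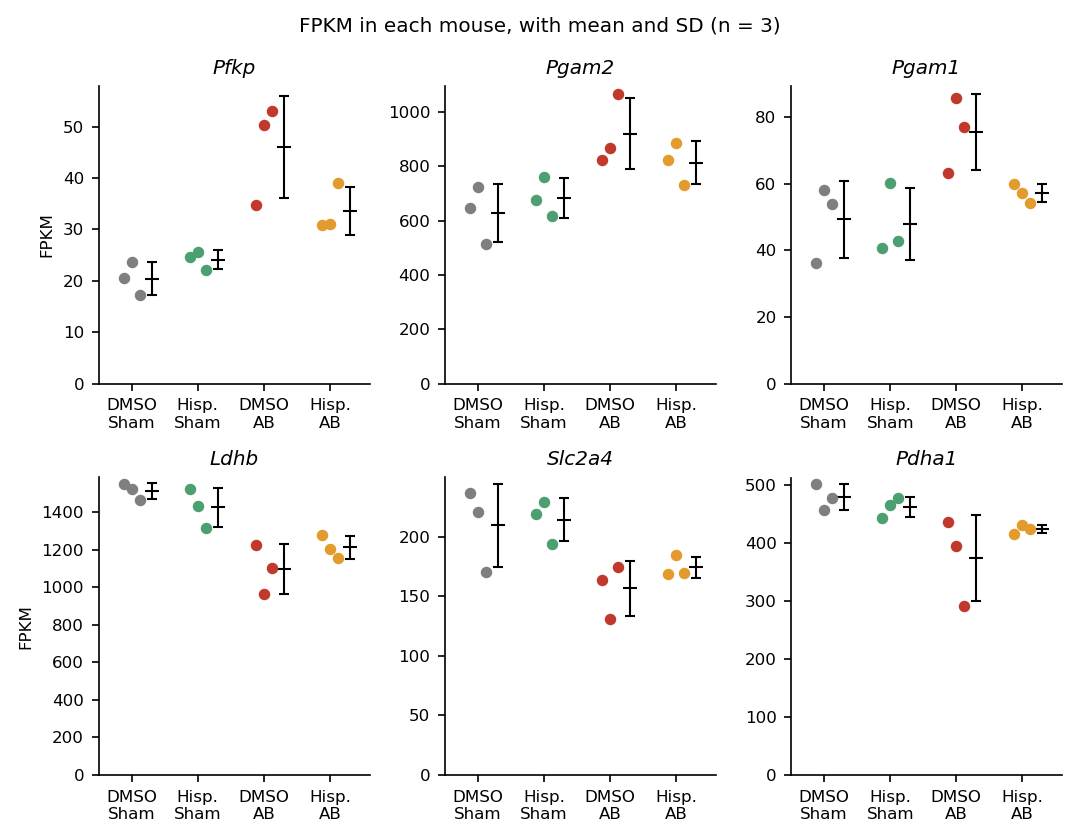
FPKM of 6 members in each mouse (points, linear axis from 0) with the mean and SD of the 3 mice of each group (bars). Pfkp lies at 30.9 FPKM or more in the AB mice and at 25.7 or less in the Sham mice, and Ldhb at 1279 or less and 1316 or more. The AB and Sham groups overlap for Slc2a4 with DMSO and for Pgam1 and Pgam2 with hispidulin.

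Of the remaining genes of these steps, Aldoa, which splits fructose-1,6-bisphosphate, ranged from 2258 to 3061 FPKM over the 12 mice and Tpi1, triose-phosphate isomerase, from 411 to 561. The Tpi1 difference under AB was 0.19 (adjusted p = 0.294 from limma). In all, 1 of the 8 preparatory members tested, Pfkp, passed, where 5.21% of all genes did.

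In the steps that regain ATP, 6 of 7 members had a difference above 0 under AB, with a median of 0.33 on the log2 scale, and 1 passed, where 44.2% of all genes lay above 0 and 5.21% passed. This was Pgam2, one of the forms of phosphoglycerate mutase, which moves a phosphate ahead of enolase. Pgam2 was found at 646, 724 and 513 FPKM in the DMSO+Sham mice, 674, 761 and 615 with hispidulin+Sham, 823, 867 and 1067 with DMSO+AB and 822, 886 and 730.1 with hispidulin+AB. All DMSO+AB mice lay above all Sham mice of both treatments, whereas the third hispidulin+AB mouse lay below the second hispidulin+Sham mouse. The difference was 0.55 (SE 0.14, 95% interval 0.24 to 0.87, adjusted p = 0.0471 from limma). The call was near the threshold. It held in 7 of 23 alternatives, with differences between 0.42 and 0.66 and an adjusted p of up to 0.214, and of the 12 fits with a library left out it held only without the first DMSO+AB or the second DMSO+Sham library.

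Pgam1, the form of most tissues, stood at 36.3, 58.0 and 53.9 FPKM in the DMSO+Sham mice, 40.6, 60.3 and 42.7 with hispidulin+Sham, 63.3, 85.9 and 77.2 with DMSO+AB and 59.8, 57.2 and 54.3 with hispidulin+AB. Every DMSO+AB mouse lay above every Sham mouse, the closest being 63.3 and 60.3 FPKM. The difference of 0.62 (SE 0.19) did not pass (adjusted p = 0.0837 from limma). It passed in 3 of 23 alternatives, among them the fit without the second DMSO+Sham library (0.75, adjusted p = 0.0419). With a library left out the difference ran from 0.415 to 0.75, and over all alternatives the adjusted p reached 0.357. Pgam1 made up 7.41% ± 2.10 of the mutase FPKM in DMSO+Sham and 7.63% ± 1.21 in DMSO+AB (SD, n = 3 mice), with overlapping ranges.

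For enolase, Eno1 is the ubiquitous and Eno3 the muscle form. Eno1 stood at 98.7, 112 and 104 FPKM in the DMSO+Sham mice, 107, 112 and 99.3 with hispidulin+Sham, 103, 145 and 156 with DMSO+AB and 108, 120.1 and 107 with hispidulin+AB. Eno3 stood at 978, 1053 and 771 FPKM in the DMSO+Sham mice, 985, 1013 and 944 with hispidulin+Sham, 861, 733 and 900.1 with DMSO+AB and 804, 928 and 826 with hispidulin+AB. The second and the third DMSO+AB mouse had the highest Eno1 levels of all, while the first lay among the Sham mice. Neither form passed (differences 0.33 and -0.16, adjusted p = 0.198 and 0.496 from limma). Eno1 made up 9.16% to 11.9% of the enolase FPKM in DMSO+Sham and 10.6% to 16.5% in DMSO+AB, which overlapped. With hispidulin it made up 9.52% to 9.95% after Sham and 11.44% to 11.85% after AB, which did not.

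Gapdh, whose transcript often serves as a reference in quantitative PCR, stood at 4378, 4015 and 3862 FPKM in the DMSO+Sham mice, 4637, 4166 and 4079 with hispidulin+Sham, 4151, 5187 and 6355 with DMSO+AB and 4296, 4909.7 and 4483 with hispidulin+AB. The third DMSO+AB mouse was the highest, and the first lay below the highest DMSO+Sham mouse. The difference of 0.34 (SE 0.13) did not pass (adjusted p = 0.179 from limma). Without the first DMSO+AB library, Gapdh and Eno1 differed by 0.49 and 0.52 and passed (adjusted p = 0.0244 and 0.0118). This was the only 1 of 23 alternatives in which either passed. With other libraries left out the differences came down to 0.19 and 0.21. Pgk1, phosphoglycerate kinase, differed by 0.18 (adjusted p = 0.335), and Pkm, pyruvate kinase, lay between 521 and 723 FPKM over all mice.

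**Figure D3:**
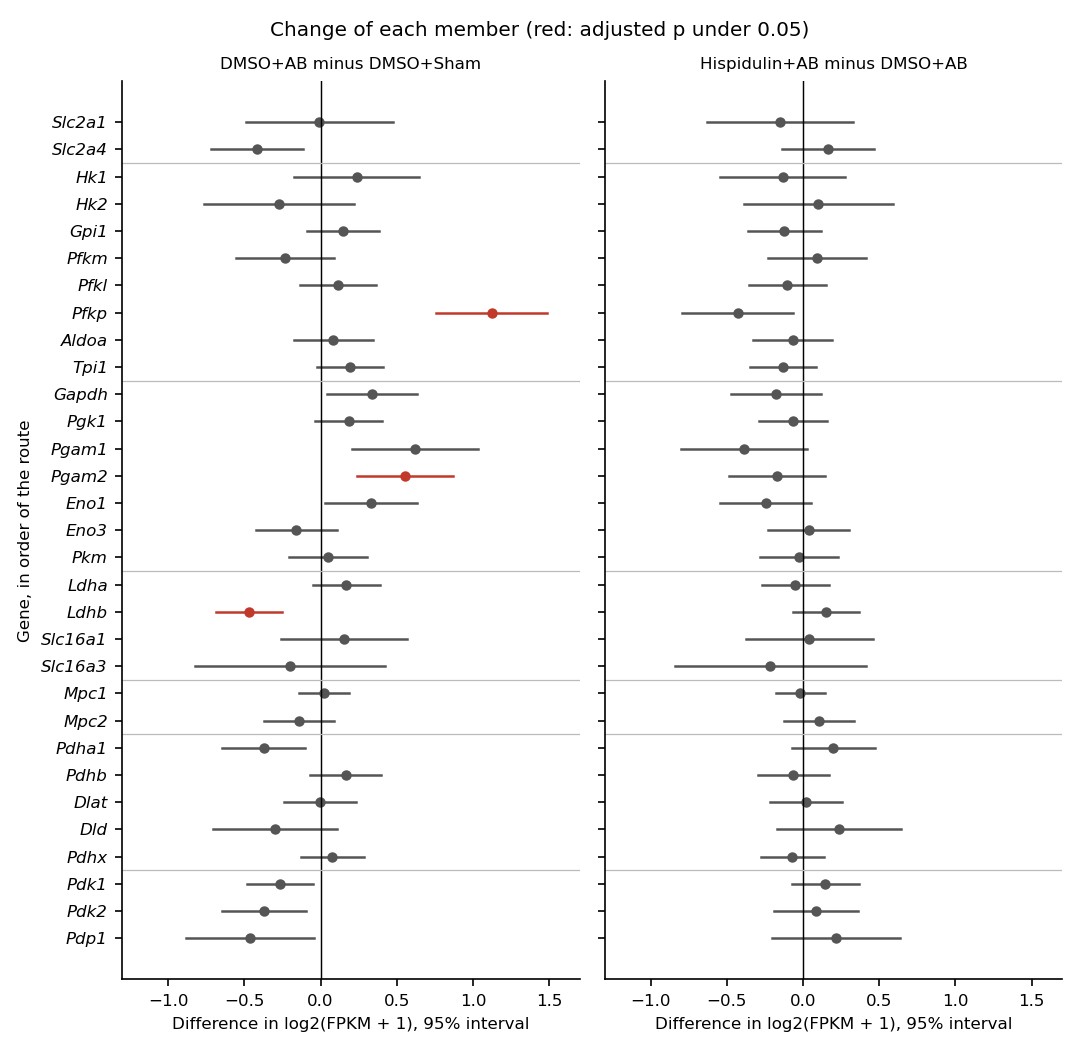
Difference in log2(FPKM + 1) of each of the 31 members tested, with its 95% interval, between DMSO+AB and DMSO+Sham (left) and between hispidulin+AB and DMSO+AB (right), in the order of the route. Red marks the 3 members with an adjusted p under 0.05 (Pfkp, Pgam2 and Ldhb, left), and no member passed on the right.

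Lactate dehydrogenase is a tetramer of Ldha and Ldhb subunits, of which Ldhb is the main form in the adult heart and is associated with lactate oxidation. Ldhb was found at 1548, 1524 and 1466 FPKM in the DMSO+Sham mice, 1526, 1434 and 1316 with hispidulin+Sham, 1228, 963 and 1101 with DMSO+AB and 1279, 1204 and 1156 with hispidulin+AB. All 6 AB mice lay below all 6 Sham mice. The difference of DMSO+AB from DMSO+Sham was -0.47 (SE 0.10, 95% interval -0.69 to -0.25, adjusted p = 0.023 from limma). Ldhb passed in 15 of 23 alternatives, and did not without the first DMSO+Sham, the second DMSO+AB or the third DMSO+AB library (adjusted p = 0.0906, 0.0893 and 0.0608) nor with median-of-ratios scaling (difference -0.45, adjusted p = 0.0554). Nor did it without a filter (0.0547), with a covariate for the animal number series (0.0942), with only the libraries compared (0.163) or without the 3 libraries of highest Myl7 outside DMSO+Sham (0.151).

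Ldha stood at 439, 474 and 411 FPKM in the DMSO+Sham mice, 487, 429.6 and 477 with hispidulin+Sham, 449, 503 and 541 with DMSO+AB and 469, 522 and 447 with hispidulin+AB. Its groups overlapped and it did not pass (difference 0.17, adjusted p = 0.377 from limma). Ldha made up 22.6% ± 1.00 of the lactate dehydrogenase FPKM in DMSO+Sham, 24.6% ± 1.81 with hispidulin+Sham, 31.3% ± 4.02 with DMSO+AB and 28.3% ± 1.76 with hispidulin+AB (SD, n = 3 mice). All 6 AB mice lay above all 6 Sham mice in this share, the closest being 26.8% and 26.6%. The share is fixed by both genes, of which Ldhb was the one that passed.

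The lactate carriers Slc16a1 (MCT1) and Slc16a3 (MCT4) lay between 47.0 and 92.8 FPKM and between 0.88 and 5.09 FPKM over the 12 mice. The highest Slc16a3 value belonged to the third DMSO+Sham mouse, and the other 11 mice lay at 2.31 FPKM or below. Neither carrier passed in any comparison, and Slc16a1 did under AB without the second DMSO+Sham library (0.43, adjusted p = 0.0492 from limma).

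**Figure D4:**
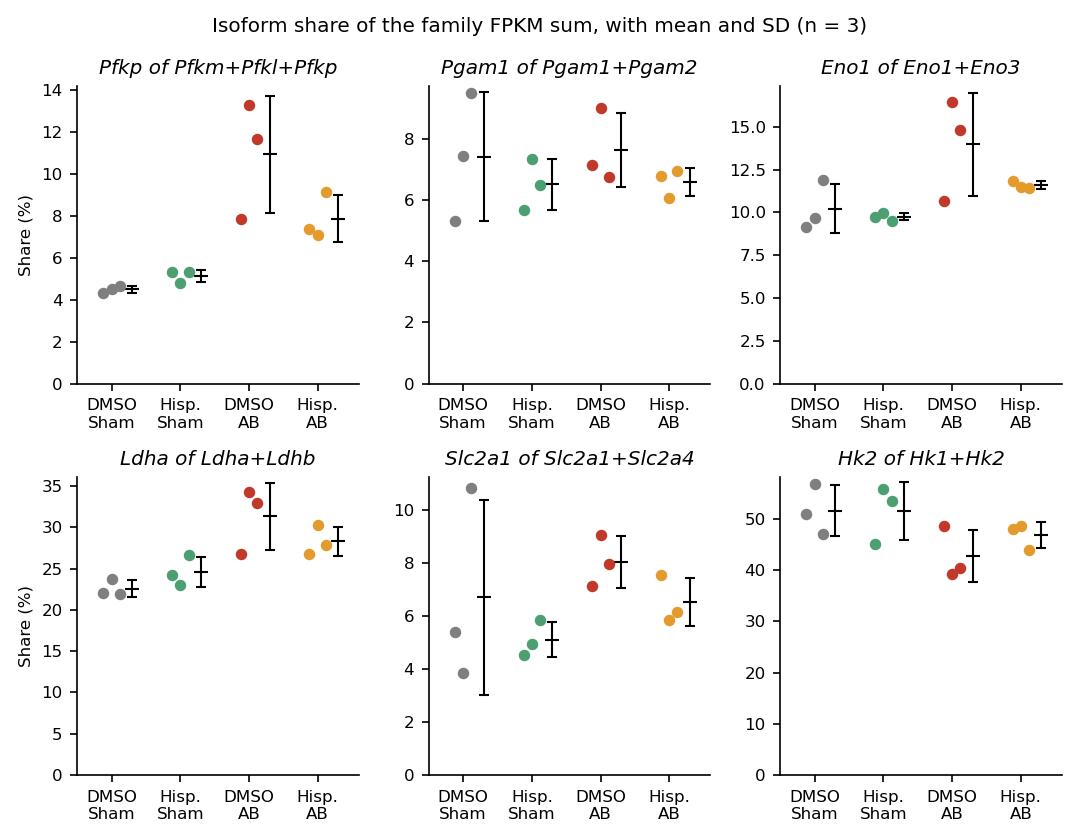
Share of 1 isoform in the FPKM sum of its pair or trio, in percent, for each mouse (points) with the mean and SD of each group (bars). The shares of Pfkp and Ldha are higher in all 6 AB mice than in all 6 Sham mice, and the groups overlap for Pgam1, Hk2, Slc2a1 and Eno1 between DMSO+AB and DMSO+Sham. With hispidulin, the share of Eno1 and, by a narrow margin, that of Slc2a1 are higher in every AB mouse than in every Sham mouse.

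Pyruvate enters the mitochondrion through a carrier of Mpc1 and Mpc2, and neither passed. Mpc1 stayed between 662 and 724 FPKM over all 12 mice, and its difference under AB had the narrowest 95% interval of the members (-0.14 to 0.18 on the log2 scale). Mpc2 differed by -0.14 (adjusted p = 0.491 from limma).

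In the pyruvate dehydrogenase complex, Pdha1 and Pdhb encode the subunits of the first enzyme, Dlat the acetyltransferase, Dld the dihydrolipoamide dehydrogenase shared with other complexes, and Pdhx the protein that binds Dld to the core. None of the 5 passed. Pdha1 stood at 503, 458 and 478 FPKM in the DMSO+Sham mice, 444, 466 and 477 with hispidulin+Sham, 437, 395 and 292 with DMSO+AB and 417, 432 and 425 with hispidulin+AB. All 3 DMSO+AB mice lay below all 6 Sham mice, and the third was the lowest. The difference was -0.37 (SE 0.12, adjusted p = 0.11 from limma), and without the first DMSO+AB library it was -0.49 and passed (adjusted p = 0.029), as it did with library weights (-0.36, adjusted p = 0.0407). Without the third DMSO+AB library it was -0.21 (adjusted p = 0.214). Dld was at 193, 181 and 182 FPKM in DMSO+Sham and at 192, 174 and 102 in DMSO+AB, so that its difference of -0.30 (adjusted p = 0.404) came to -0.02 without the third DMSO+AB library. Pdhb differed by 0.17, with the opposite sign to Pdha1 (adjusted p = 0.417), and Dlat and Pdhx lay from 108 to 139.9 and from 60.9 to 72.7 FPKM over the 12 mice.

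The complex is switched off by kinases (Pdk1 and Pdk2 among the members) and on by phosphatases (Pdp1). All 3 had a difference below 0 and an unadjusted p under 0.05, as 55.8% and 20.4% of all genes had, but none passed. Pdk2, the main kinase among the members, stood at 333, 305 and 326 FPKM in DMSO+Sham and 261, 204 and 288 in DMSO+AB, without overlap (difference -0.37, adjusted p = 0.116 from limma). Among the alternatives it passed only with library weights (-0.50, adjusted p = 0.0193). With a library left out its difference ran from -0.48 to -0.23. Pdk1 and Pdp1 differed by -0.27 and -0.46 (adjusted p = 0.152 and 0.202), and Pdp1 by -0.27 without the third DMSO+AB library (adjusted p = 0.468). The third DMSO+AB mouse had the lowest value of all 12 for Pdha1, Dld, Pdk1, Pdp1 and Mpc2.

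Over both treatments, the mean of the AB groups was compared with that of the Sham groups, 6 mice against 6. By this measure 4 of 31 members passed (12.9%, against 7.39% of all genes tested, 3.52% as higher and 3.87% as lower). Differences lay above 0 in 15 members and below 0 in 16, against 44.2% and 55.8% of all genes, and the median of the members was -0.01. At the stricter thresholds of the study's methods (0.001 for the adjusted p and 1 for the log2 difference) 0 members passed, against 0.0772% of all genes. Pfkp differed by 0.79 (SE 0.12, adjusted p = 0.00398 from limma), Ldhb by -0.35 (0.07, 0.0135), Pgam2 by 0.40 (0.10, 0.034) and Slc2a4 by -0.35 (0.10, 0.0487). The Slc2a4 call held in 7 of 22 alternatives and, of the fits with a library left out, only without the first DMSO+AB, the third DMSO+AB or the third DMSO+Sham library. That of Pgam2 held in 11 of 22. Pfkp and Ldhb passed in 21 and 20 of 22, and in every fit that left out 1 library. The mice of the AB and the Sham groups did not overlap in 3 members (Pfkp, Ldhb and Pdha1), as in 4.96% of all genes. DMSO+AB enters this comparison as well as the first, so the 2 are not independent.

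The labels carry animal numbers that fall into series, and the series is not stated to be a batch. Within the series of numbers beginning with 5 (2 AB and 3 Sham mice) and 6 (4 AB and 2 Sham mice), the AB minus Sham difference of Pfkp was 0.86 and 0.85, that of Ldhb -0.41 and -0.26, that of Pgam2 0.30 and 0.60 and that of Slc2a4 -0.37 and -0.18. The signs were the same in both.

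Next, the effect of the drug in the loaded heart was examined, hispidulin+AB against DMSO+AB. None of the 31 members passed, as none of all genes tested did (0%), and the smallest adjusted p among members from limma was 0.996. Without the first DMSO+AB library 20 genes passed, and 1296 in place of 362 had an unadjusted p under 0.05, while 0 members passed. An unadjusted p under 0.05 was found for 1 member, where 3.1% of all genes had one, and in 1 member, Pgam1, the groups did not overlap, against 7.88% of all genes. Differences lay above 0 in 13 members and below 0 in 18, where 51.4% of all genes lay above 0, with a median of -0.05, against 0.0047 over all genes. By step, the 3 regulators of pyruvate dehydrogenase lay above 0 (median 0.15) and 6 of the 7 payoff members below (median -0.17).

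The 3 members of smallest p were Pfkp, Pgam1 and Eno1, all lower with hispidulin. Pfkp was 30.9, 31.0 and 38.99 FPKM in hispidulin+AB and 34.7, 50.4 and 53.1 in DMSO+AB, with a difference of -0.43 (95% interval -0.79 to -0.06, adjusted p = 0.996, unadjusted p from the same limma fit 0.0253). The third hispidulin+AB mouse lay above the first DMSO+AB mouse. Pgam1 and Eno1 differed by -0.39 (-0.80 to 0.03) and -0.25 (-0.55 to 0.06). With a library left out they differed by -0.50 to -0.29 and by -0.43 to -0.13.

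Of the members that passed under AB, Pgam2 differed by -0.17 (-0.49 to 0.14) and Ldhb by 0.15 (-0.07 to 0.37) with hispidulin, and Slc2a4 by 0.16 (-0.14 to 0.47). With a library left out these differences ran from -0.247 to -0.06, from 0.06 to 0.235 and from 0.04 to 0.249. Pdha1 and Dld differed by 0.20 (-0.07 to 0.47) and 0.24 (-0.17 to 0.64). Without the third DMSO+AB library the Dld difference turned to -0.04 and that of Pdha1 came to 0.03. Each of the intervals in parentheses includes 0, and the DMSO+AB mice enter both comparisons.

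In hispidulin-treated mice, AB against Sham, none of the members and none of all genes passed (0%; smallest adjusted p among members from limma 0.599). With the replicate number as a block 17 genes passed, with only the libraries compared 49 and with library weights 209, and 0 of them were members. At an unadjusted p under 0.05 there were 2 members, Pfkp higher and Ldhb lower, where 7.26% of all genes had one. Pfkp differed by 0.46 (0.09 to 0.82), Ldhb by -0.23 (-0.45 to -0.01), Slc2a4 by -0.29 (-0.60 to 0.01), Pgam2 by 0.25 (-0.06 to 0.57) and Pgam1 by 0.27 (-0.14 to 0.68). Differences lay above 0 in 15 members, where 45.1% of all genes did. The groups did not overlap in 6 members (Slc2a4, Pfkp, Eno3, Ldhb, Slc16a1 and Pdha1), against 20.9% of all genes.

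Whether the change under AB differed with the drug was tested as an interaction. No member and no gene passed, at an unadjusted p under 0.05 there was 1 member against 2.48% of all genes, and this was Pfkp. The difference under AB was 1.12 with DMSO and 0.46 with hispidulin, a difference of differences of -0.66 (95% interval -1.18 to -0.15) with an adjusted p of 1.0 from limma. Pfkp had the largest difference of the members under AB with DMSO. The same DMSO+AB mice enter the interaction, which is thus not independent of that difference. Differences of differences lay above 0 in 11 members, against 53.4% of all genes.

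In Sham mice, hispidulin against DMSO, no member passed and none had an unadjusted p under 0.05, where 0% and 2.46% of all genes did. Differences ranged from -0.57 for Slc16a3 (-1.19 to 0.05), which was high in the third DMSO+Sham mouse, to 0.37 for Slc16a1 (-0.04 to 0.78), with a median of 0.03. Without the third DMSO+Sham library these were -0.16 and 0.16. Over all members differences lay above 0 in 22 members, where 47.6% of all genes did (52.3% below), and the groups overlapped in every member, against 5.6% of all genes without overlap. In the comparison of both hispidulin with both DMSO groups, 0 members passed as well, as did 0% of all genes, with 0 members at an unadjusted p under 0.05 (2.97% of all genes), 13 members below 0 (51.4% of all genes) and 0 without overlap (0.0257% of all genes).

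Other genes of the pathway were taken from a list of 32 symbols that are not members. Of these, 28 were in the table and 20 passed the filter, and 7 of the 20 (35%) passed under AB in DMSO-treated mice, 1 higher and 6 lower, against 5.21% of all genes (2.5% higher and 2.71% lower). The median of the 20 was -0.40, against -0.035 over all genes.

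Fbp2 and Pfkfb1 were among those that fell. Fbp2, muscle fructose-1,6-bisphosphatase, which opposes phosphofructokinase, stood at 24.5, 18.9 and 23.3 FPKM in the DMSO+Sham mice, 25.4, 24.7 and 17.1 with hispidulin+Sham, 14.5, 8.6 and 6.79 with DMSO+AB and 18.6, 19.8 and 14.9 with hispidulin+AB. Pfkfb1, which makes and breaks the activator fructose-2,6-bisphosphate, stood at 11.7, 5.25 and 5.97 FPKM in the DMSO+Sham mice, 8.95, 9.74 and 7.15 with hispidulin+Sham, 2.69, 0.99 and 1.21 with DMSO+AB and 3.56, 6.19 and 2.92 with hispidulin+AB. In both genes all DMSO+AB mice lay below all Sham mice. The differences were -1.14 and -1.70 (adjusted p = 0.02 and 0.0133 from limma). Without the second DMSO+AB, the third DMSO+AB or the first DMSO+Sham library, Fbp2 (adjusted p = 0.0855, 0.0705 and 0.0849) and Pfkfb1 (0.0638, 0.0535 and 0.054) did not pass. Nor did they when only the 6 DMSO libraries were fitted (0.14 and 0.111), with a covariate for the animal number series (0.0711 and 0.0518) or without the 3 libraries of highest Myl7 outside DMSO+Sham (0.14 and 0.132), so that each call held in 17 of 23 alternatives.

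A further 3 that fell were Pdp2, a second phosphatase that activates pyruvate dehydrogenase (-0.82, adjusted p = 0.0427 from limma), Slc2a12, a minor glucose carrier (-0.74, 0.0335), and Ldhd, the dehydrogenase of D-lactate (-0.59, 0.0466). Pdp2 was 10.3, 6.88 and 4.83 FPKM in DMSO+Sham and 3.59, 3.5 and 3.58 in DMSO+AB. These calls were close to the threshold and held in 7 of 23, 13 of 22 and 6 of 23 alternatives, and in 2, 7 and 2 of the 12 fits with a library left out. Over both treatments 7 of 20 passed again, against 7.39% of all genes, with Slc16a7, a further monocarboxylate carrier (-0.55, adjusted p = 0.0284 from limma), in place of Slc2a12. The Slc16a7 call held in 10 of 21 alternatives and in 4 of the 12 fits with a library left out, and that of Fbp2 in 15 of 22 and 7 of 12. Pfkfb1 then differed by -1.31, Fbp2 by -0.72 and Pdp2 by -0.79.

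**Figure D5:**
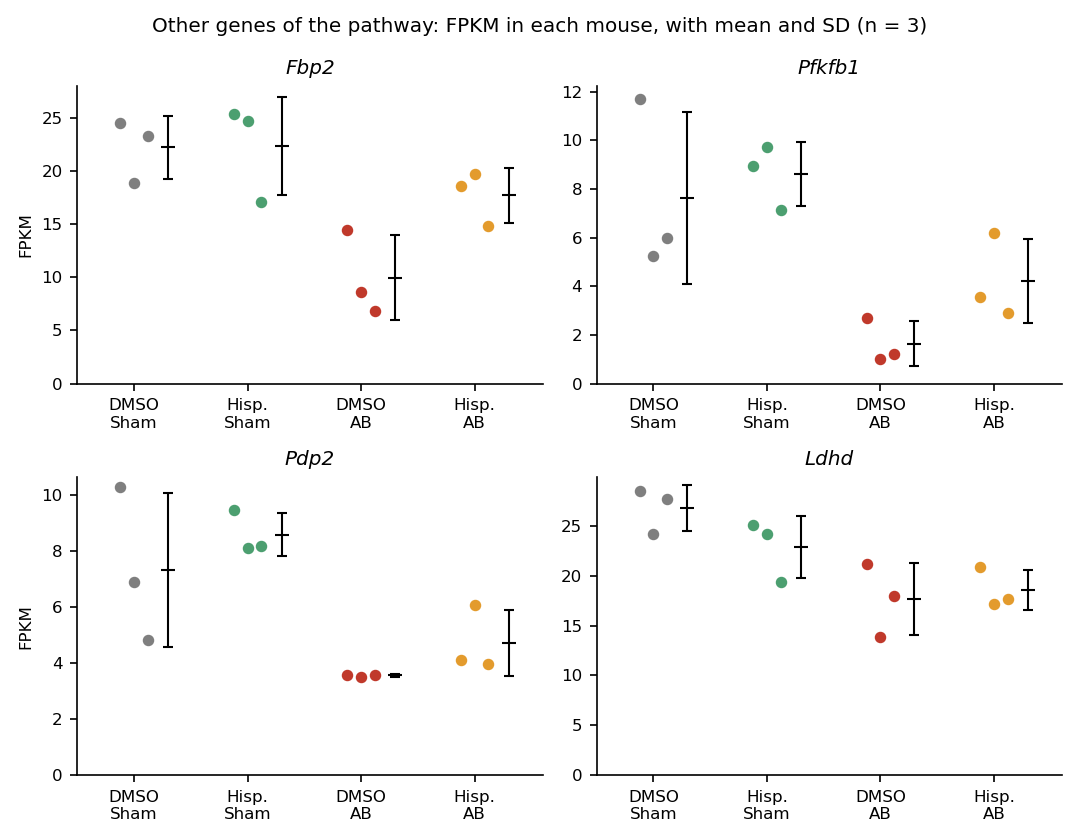
FPKM of 4 genes of the pathway that are not members, in each mouse (points, linear axis from 0) with the mean and SD of the 3 mice of each group (bars). Fbp2 is at 14.5 FPKM or less in the DMSO+AB mice and at 14.9 or more in all others.

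With hispidulin after AB, none of these 20 passed (0% of all genes did). An unadjusted p under 0.05 was found for 3, where 3.1% of all genes had one. Among them, Fbp2 and Pfkfb1 were higher with hispidulin, by 0.83 (95% interval 0.32 to 1.33) and 1.00 (0.32 to 1.67), with an adjusted p of 0.996 from limma. In Fbp2 and Pfkfb1 every hispidulin+AB mouse lay above every DMSO+AB mouse, the closest being 14.85 and 14.47 FPKM in Fbp2 and 2.92 and 2.69 in Pfkfb1. Fbp2, Pfkfb1 and Slc2a12 were named for their fall in the same DMSO+AB mice. Those mice enter the hispidulin difference and the interaction, so neither is independent of that choice. In 7 of the 20 genes the groups did not overlap, against 7.88% of all genes. The interaction gave 0.83 for Fbp2 and 0.65 for Slc2a12, each with an adjusted p of 1.0.

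Pdk4, the kinase that fasting and fatty acids induce, and Txnip, which restrains glucose uptake, varied widely within groups. Pdk4 stood at 954, 205 and 515 FPKM in the DMSO+Sham mice, 756, 345 and 774 with hispidulin+Sham, 593, 412 and 349 with DMSO+AB and 513, 554 and 658 with hispidulin+AB. Txnip stood at 648, 455 and 438 FPKM in the DMSO+Sham mice, 695, 237 and 563 with hispidulin+Sham, 478, 350.3 and 391 with DMSO+AB and 520.4, 595 and 504 with hispidulin+AB. Both spreads were as large within DMSO+Sham or hispidulin+Sham as between any groups, and neither passed in any comparison (differences under AB -0.08 and -0.33, adjusted p = 0.941 and 0.596 from limma). Pdk4 exceeded Pdk2 (204 to 333 FPKM) in 11 of the 12 mice.

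Several of these genes have near-identical copies, and how reads matching more than 1 place were assigned is not given in the sources used here. Of the 50-base windows of the longest coding transcript (GENCODE M21, either strand), 82.5% of Gapdh, 72.2% of Eno1, 68% of Pgk1, 41.5% of Pgam1, 34.4% of Pkm, 30.3% of Pdhb, 29.6% of Mpc1, 25.3% of Gpi1, 16.6% of Ldha and 13.5% of Aldoa also occur in transcripts of other genes, so their levels are uncertain. For Ldhb it was 27%, all in the predicted gene Gm5514, and for Pfkp 17.1%, all in Pitrm1, and whether reads were counted by strand is not given either. It was 16.9% for Pdha1 and 8.69% for Slc2a12. Pitrm1 was at 21.1 ± 2.71 FPKM in DMSO+Sham and 16.4 ± 1.73 in DMSO+AB (SD, n = 3 mice; difference -0.34, adjusted p = 0.1 from limma), the opposite direction to Pfkp. No window was shared for Pgam2, Slc2a4, Pfkm, Eno3, Fbp2 and Pfkfb1.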

How the data were processed

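The authors sequenced polyadenylated RNA as single-end reads of 50 bases on a BGISEQ-500 and deposited 1 table of FPKM, rounded to 0.01, for the 12 libraries. The submitters' processing notes name HISAT2 2.0.4, Bowtie2 2.2.5, RSEM 1.2.12 and DESeq2 1.4.5 without their roles, and the genome build and annotation are not given in the sources used here. Read counts were not used here. Ratios of low values lay within 0.1 of a whole number in 21.7% of cases, against 20% if evenly spread, so the depth is unknown and no counting error can be given. The FPKM of a library summed to between 535235 and 567027.

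Groups came from the sample labels. Symbols were matched for 17947 of 18079 genes (99.3%). On log2(FPKM + 1), limma 3.58.1 in R 4.3.3 estimated 1 mean for each group from the 12 libraries together, which leaves 8 error degrees of freedom. Variances were moderated with eBayes and a trend, and p-values were two-sided, with Benjamini-Hochberg adjustment over the 11664 genes that reached 1 FPKM in 3 or more libraries. A fold change on this scale understates the change of low genes. An adjusted p under 0.05 was called. The p-values measure the spread between mice, 1 library each. On simulated data (200 of 11664 genes changed, DMSO+AB against DMSO+Sham), 87% of changes of 1 and 99% of changes of 2 on the log2 scale were called, and 3.63% of the 193 calls were unchanged genes. The noise was drawn independently for each gene and mouse, and only genes of higher mean level were changed. Deviations shared across a library, as seen above, were not simulated, so these shares need not hold for the real data.

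The members and lists were chosen with earlier results of these data known, and 6 members (Dld, Pdha1, Pgam1, Pgam2, Ldhb and Slc2a4) stand in a list that the study chose on these samples, so no list was tested. All members are named. Values in every mouse are given for members called in any contrast, for the 3 of smallest p with hispidulin after AB and for isoforms whose shares are described. Of the other genes of the pathway, Pdk4, Txnip and those that passed are named, except 2 that are counted but not reported here.

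Replicate numbers belong to different mice. Deviations of same-numbered mice correlated by 0.126 to 0.33 between the Sham groups and by 0.147 to 0.228 between the hispidulin groups, but by -0.198 to -0.024 between the DMSO groups and by -0.183 to 0.3 between the AB groups. By the rule used (every pair over 0.1) the numbers pair the first 2 contrasts, where the block changed no call of a member.

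Alternatives were 0.1 in place of 1, no filter or a filter of 5, median-of-ratios and quantile scaling, no trend, library weights, the replicate block, the animal number series, only the libraries compared, and each of the 12 libraries left out. The animal number of the first DMSO+Sham mouse forms a series by itself. The fit with the series is therefore also a fit without the first DMSO+Sham library. The fit without the 3 libraries of highest Myl7 outside DMSO+Sham was chosen after seeing the data. Tables and figures were made with Python 3.11.15 and matplotlib 3.10.9.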

Additional observations from a re-analysis of the deposited data

How the results depend on the processing

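Under AB in DMSO-treated mice 3 members passed. The number was 1 without a filter, with median-of-ratios scaling and with a covariate for the animal number series, 7 with library weights, 0 with only the libraries compared, 0 without the 3 libraries of highest Myl7 outside DMSO+Sham, and from 1 to 6 with a library left out. It was lowest without the first DMSO+Sham, second DMSO+AB or the third DMSO+AB library and highest without the first DMSO+AB library (6) and the second DMSO+Sham library (5). Over both treatments 4 passed, against 2 without a filter and with the series as a covariate, 10 with library weights, 0 without those 3 libraries and from 2 to 8 with a library left out (8 without the first DMSO+AB library). The counts over all genes moved too. Of 608 genes under AB in DMSO-treated mice, 383 passed without a filter, 142 with the series, 11 with only the libraries compared, 20 without the 3 libraries and 1423 with weights, and of 862 over both treatments, 547 with the series, 74 without the 3 libraries and 2535 with weights. With a library left out the counts ran from 91 to 1053 and from 376 to 1220. In the other 5 comparisons 0 members passed in every alternative run.

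With the replicate number as a block, 4 members passed under AB in DMSO-treated mice (Pgam1 in addition to Pfkp, Pgam2 and Ldhb) and 4 over both treatments (with Pgam1 in place of Slc2a4). By the rule used the numbers pair the hispidulin groups, which enter the second of these comparisons, but not the DMSO groups. All called differences of named genes kept their sign. Differences near 0 did not: 8 members changed sign in at least 1 alternative under AB in DMSO-treated mice, 11 with hispidulin after AB, 19 with hispidulin after Sham, 12 under AB with hispidulin and 12 in the interaction, so the tallies above and below 0 are no count of stable directions. Among differences given with their values, that of Dld with hispidulin after AB turned to -0.0443 without the third DMSO+AB library (over all libraries left out, -0.04 to 0.41), and that of Pdk4 under AB turned to 0.35 with the series as a covariate and to 0.43 and 0.0848 without the first DMSO+Sham and the third DMSO+AB library (from -0.67 to 0.43 over all libraries left out). The cause was not tested. The median difference of the members under AB in DMSO-treated mice ran from -0.0147 with library weights to 0.1001 with the series as a covariate (0.0476 as reported), and scaling moved the median of all genes by at most 0.0209. Depth is unknown, so it could not be set against any of these values.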

Other observations

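Erythroid, macrophage, endothelial, smooth muscle and fat markers were also summed. None of them passed under AB in DMSO-treated mice, and Tagln, a smooth muscle marker, passed as higher over both treatments. The third DMSO+Sham mouse had the highest Slc2a1, Slc16a3, Pfkfb3 and Pcx levels of all 12 (20.8, 5.09, 12.5 and 18.6 FPKM). It had the lowest Hk2 and Pkm (32.2 and 521 FPKM) and the lowest Pfkp and Pgam2 (17.2 and 513 FPKM), the members called as higher under AB. Hk1, Pfkl, Tpi1, Gapdh, Pgk1, Ldha, Slc16a1, Pdhb and Dlat were lowest in this mouse as well. Without its library the AB difference in DMSO-treated mice was 1.01 for Pfkp (adjusted p = 0.0133 from limma) and 0.42 for Pgam2 (0.114). The same mouse had the highest macrophage sum (43.8 FPKM, against 23.9 to 37.5 in the others). The part of macrophages in these values was not tested.

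The first DMSO+AB mouse lay nearest to the Sham mice in several members that differ under AB. For Pfkp it stood at 34.7 FPKM against 50.4 and 53.1 in the other DMSO+AB mice, for Eno1 at 103 against 145 and 156, and for Ldhb at 1228 against 963 and 1101. It was also the lowest of the 3 for Nppa (680 against 6043 and 5738 FPKM) and Acta1 (2141 against 4373 and 8828). In hispidulin+AB mice Nppa stood at 666, 1047 and 850 FPKM and Acta1 at 1893, 4206 and 2824.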
